A study of Homo sapiens with 10 samples.

Results

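Heat shock proteins and their DNAJ co-chaperones were followed in 697 cells, an established human line from a pre-B acute lymphoblastic leukaemia, with and without the phorbol ester TPA (12-O-tetradecanoylphorbol-13-acetate, an activator of protein kinase C). The members were taken by symbol and are the protein-coding rows of the HSP90, HSPA, HSPB, HSPD, HSPE, HSPH, DNAJA, DNAJB and DNAJC families. They came to 73 of the 27142 genes in the table, 28 with an HSP symbol and 45 with a DNAJ symbol. Another 12 rows with matching names were left out, 4 of them pseudogenes and 8 with a hyphenated symbol such as read-through or antisense genes.

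The series holds 10 samples, of which 4 are RNA libraries of parental 697 cells, 2 untreated (control) and 2 given TPA at 0.5 µg/ml. The treatment time is stated as 0 to 24 h for the series as a whole and not for each library, and what the control cells received is not described. All 4 libraries come from 1 cell line, and whether the replicates were grown apart is not stated, so the p-values describe the spread between libraries, which may be technical. The other 6 samples (ChIP and input DNA) were not analysed here. Values are RPKM, a density of reads corrected for gene length and sequencing depth. Markers of the pre-B lineage were above 1 RPKM in every library but shifted strongly. CD79A had 218 and 199 RPKM in control and 823 and 893 RPKM with TPA, and CD22 and CD79B were higher as well. The early-stage markers were far lower: DNTT went from 775 and 803 RPKM to 14.6 and 37.4 RPKM, IGLL1 from 459 and 455 RPKM to 4.86 and 13.1 RPKM, and VPREB1 from 338 and 356 RPKM to 7.12 and 20.2 RPKM. EBF1 went from 36.7 and 38.4 RPKM to 9.06 and 13.1 RPKM and PAX5 from 80.5 and 74.2 RPKM to 28.9 and 37.6 RPKM. This shift moves with every chaperone result given here, and its part in them was not tested. The 6 T-cell markers summed to at most 0.127 RPKM in any library and the 5 erythroid markers to at most 0.12 RPKM. The 6 myeloid markers summed to 0.667 and 0.972 RPKM in control and to 3.13 and 3.85 RPKM with TPA, of which CSF1R made up 2.93 and 3.66 RPKM.

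Heat shock proteins are molecular chaperones, which bind unfolded stretches of other proteins and help them fold. HSP70 proteins (HSPA genes) do so in cycles of ATP hydrolysis, DNAJ proteins (also called HSP40 or J proteins) deliver clients and switch on that hydrolysis, and HSP110 proteins exchange the nucleotide. HSP90 acts later, on kinases, receptors and other signalling proteins, and HSPD1 with HSPE1 forms the folding chamber of mitochondria. Several of these genes are induced by heat through the transcription factor HSF1, while the set of the endoplasmic reticulum (ER) answers to unfolded protein there.

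A gene entered the test when 2 or more libraries held 1 RPKM or above. This left 50 members, compared with limma on log2(RPKM + 1), and at an adjusted p under 0.05 (Benjamini-Hochberg over all 12159 genes tested) 12 rose with TPA, 16 fell and 22 did not pass. Of all genes tested, 28.4% rose, 29.8% fell and 58.2% passed in either direction, so the members as a whole moved about as often as other genes. Of the 14 HSP genes tested 9 fell and 0 rose (0 also at an unadjusted p under 0.05 in limma), whereas of the 36 DNAJ genes tested 12 rose and 7 fell. After quantile normalization 3 HSP genes rose (HSPA5, HSP90B1 and HSPB1). For the DNAJ genes these are 33.3% and 19.4%, near the shares over all genes. The difference between the families was not tested. The median log2 fold change was -1.12 for the HSP genes and 0.0968 for the DNAJ genes, against -0.0241 for all genes tested.

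Over all 50 members the median was -0.0545, and its sign turned to 0.0164 without control replicate 2, 0.0238 without TPA replicate 1 and 0.00774 after quantile normalization. The groups did not overlap for 38 members (76.0%), against 79.8% of all genes tested. Changes of at least 2-fold on the log2 scale were passed by 7 members that rose and 11 that fell, and by 23.2% of all genes tested. The smallest two-sided p that permuting 2 libraries against 2 allows is 0.333, and single genes were therefore read from the limma fit alone.

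**Figure D1:**
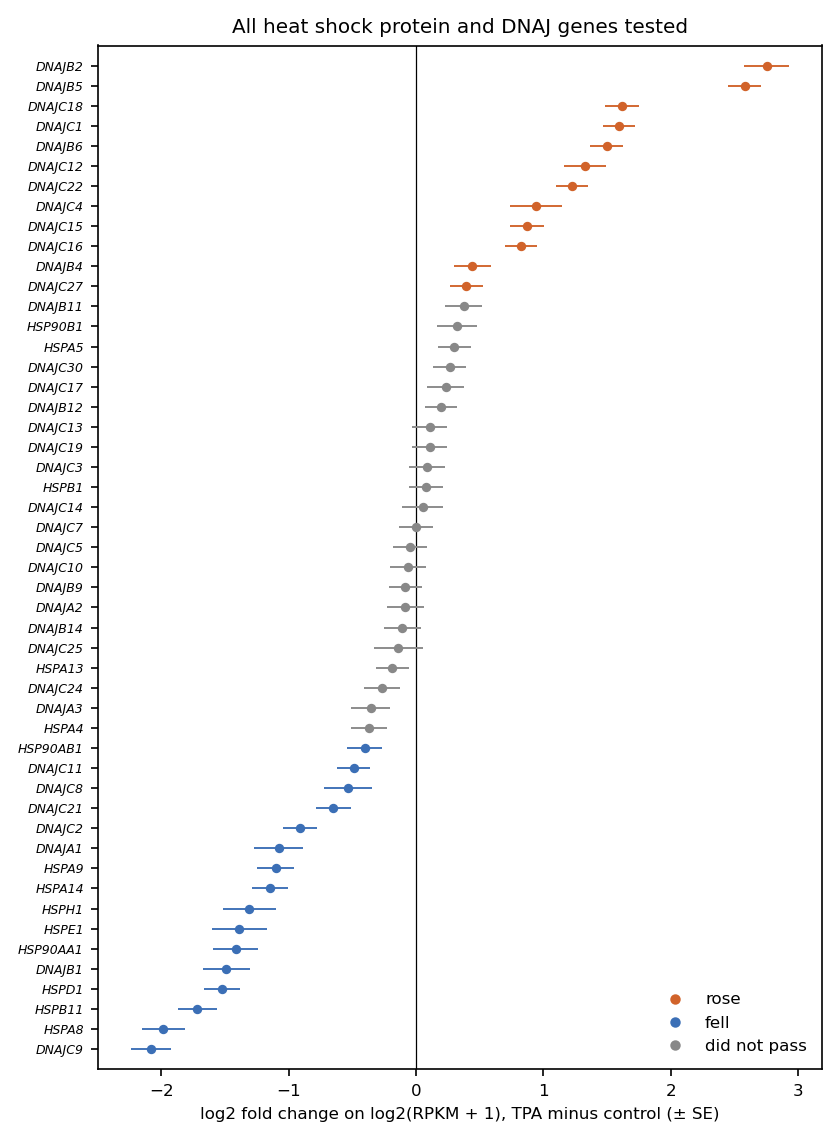
Log2 fold change (TPA minus control, on log2(RPKM + 1)) with its standard error from limma for each of the 50 members tested; colours mark genes that rose, fell or did not pass. Values run from -2.08 for DNAJC9 to 2.76 for DNAJB2, and the 12 genes that rose all carry a DNAJ symbol.

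The summed level of the 73 members was 3992 and 4928 RPKM in the control libraries and 2616 and 2739 RPKM with TPA. As a share of the RPKM of all genes this was 1.08% and 1.27% in control and 0.748% and 0.704% with TPA. HSPA8, HSP90AA1 and HSP90AB1 together held 2073 and 2668 RPKM of this sum in control and 1016 and 1007 RPKM with TPA. The members that fell were the more abundant in control, with a median of 58.1 RPKM, against 2.96 RPKM for those that rose. The same tilt runs through the whole table. Of the 609 genes tested with a mean of 100 RPKM or more in control, 50.9% fell and 7.55% rose, and of the 3785 genes below 5 RPKM, 47.6% rose and 15.4% fell. Of the 10 members at 100 RPKM or more, 7 fell and 0 rose (0 of the HSP genes and 0 of the DNAJA genes rose at an unadjusted p under 0.05 either), and of the 11 members below 5 RPKM, 9 rose. A gene this low in control can enter the test through its TPA libraries alone, as DNAJC22 did, so the filter partly fixes the direction of the low stratum, for members and for all genes.

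HSPA8 encodes HSC70, the constitutive HSP70 of the cytosol, and had the highest level of any member in control. Its level was 930.2 and 1244 RPKM in the control libraries and 275 and 266 RPKM with TPA. Both treated libraries lay far below both controls, and the gene went from rank 45 and 25 among all genes in control to rank 143 and 163 with TPA. The log2 fold change was -1.99 (SE 0.168, adjusted p = 3.20e-05).

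HSP90AA1 and HSP90AB1 encode the inducible and the constitutive HSP90 of the cytosol. HSP90AA1 had 497 and 682 RPKM in control and 209 and 227 RPKM with TPA. Its groups lay well apart (log2 fold change -1.42, SE 0.176, adjusted p = 2.61e-04). HSP90AB1 had 646 and 742 RPKM in control and 532 and 514 RPKM with TPA. This smaller change of -0.40 on the log2 scale passed narrowly (SE 0.140, adjusted p = 0.0378) and did not pass when any 1 library was left out. The adjusted p was then 0.115 and 0.378 without control replicate 1 and 2, and 0.0745 and 0.09995 without TPA replicate 1 and 2. The ratio of HSP90AB1 to HSP90AA1 within a library does not depend on library scaling. It was 1.30 and 1.09 in control and 2.55 and 2.27 with TPA, so the constitutive form exceeded the inducible form by more in the treated libraries.

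HSPH1, an HSP110 that recharges HSP70, fell from 44.4 and 70.9 RPKM to 22.7 and 21.45 RPKM. HSPA14, an atypical HSP70 that sits at the ribosome with the J protein DNAJC2, fell from 19.4 and 22.8 RPKM to 8.70 and 9.19 RPKM. DNAJC2 fell as well, from 20.3 and 23.15 RPKM to 11.2 and 10.9 RPKM. Their log2 fold changes were -1.31 for HSPH1, -1.15 for HSPA14 and -0.91 for DNAJC2. HSPA4, a further HSP110, had 78.6 and 81.8 RPKM in control and 67.3 and 56.7 RPKM with TPA and narrowly missed the threshold (log2 fold change -0.37, adjusted p = 0.0547). Scaling by median of ratios brought HSPA4 past the threshold (adjusted p = 0.0431), as did dropping TPA replicate 1 (0.0315) and fitting protein-coding genes alone (0.0497). After quantile normalization its log2 fold change was -0.22 (adjusted p = 0.229), and without TPA replicate 2 it was -0.25 (0.183).

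**Figure D2:**
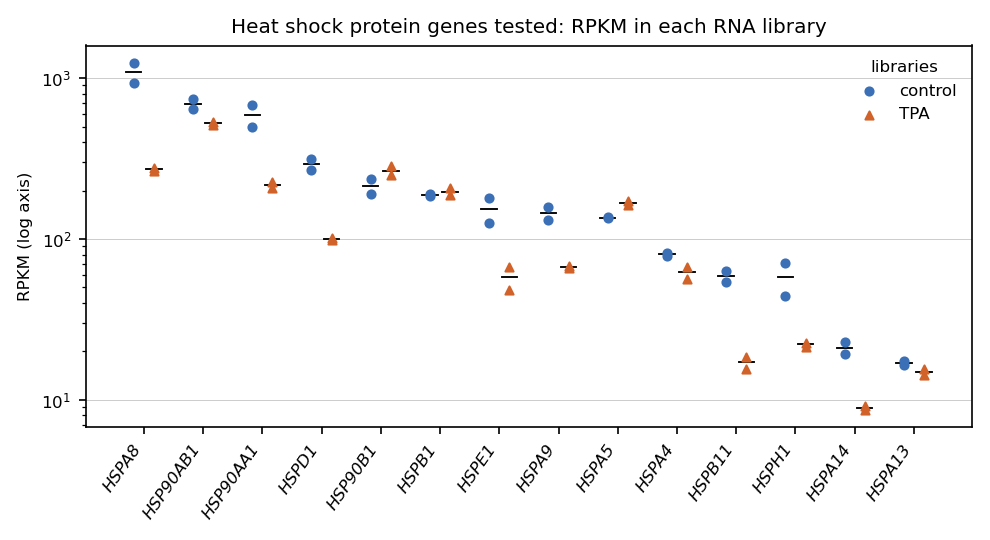
RPKM (log axis) of the 14 heat shock protein genes tested in each of the 2 control and 2 TPA libraries, ordered by control mean; black bars are group means. HSPA8, HSP90AA1, HSPD1, HSPE1 and HSPA9 lie lower with TPA without overlap, while HSP90B1 and HSPA5, the ER forms, lie above control.

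HSPD1, HSPE1 and HSPA9, chaperones of the mitochondrial matrix, fell. Each had a control mean of 100 RPKM or more, a level at which 50.9% of all genes tested fell. HSPD1 (HSP60) had 267 and 315 RPKM in control and 98.5 and 102 RPKM with TPA, and its partner HSPE1 (HSP10) had 126 and 181 RPKM in control and 48.4 and 66.8 RPKM with TPA. The ratio of HSPE1 to HSPD1 was 0.471 and 0.573 in control and 0.492 and 0.655 with TPA, values that overlap between the groups. HSPA9 (mortalin), the mitochondrial HSP70, fell from 132 and 158 RPKM to 65.9 and 67.8 RPKM. The log2 fold changes were -1.52 for HSPD1, -1.39 for HSPE1 and -1.10 for HSPA9. TRAP1, the mitochondrial HSP90, is in the cofactor list and did not pass (log2 fold change -0.34, adjusted p = 0.0803 in limma). It had 117 and 126 RPKM in control and 87.5 and 105 RPKM with TPA. HSPE1 shares sequence with the read-through gene HSPE1-MOB4 (25.3 and 34.9 RPKM in control, 13.8 and 17.9 RPKM with TPA), and how reads were divided between them is not given in the sources used here.

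The J proteins of mitochondria were less uniform. DNAJC11, a protein of the membrane contact apparatus, fell from 31.9 and 34.2 RPKM to 23.1 and 23.4 RPKM, but not without control replicate 1 or 2 (adjusted p = 0.0642 and 0.140). DNAJA3 (TID1), which works with HSPA9, went from 37.9 and 42.1 RPKM to 27.8 and 34.4 RPKM and did not pass (log2 fold change -0.36, adjusted p = 0.0768), though it did after median-of-ratios scaling (0.022) and without TPA replicate 2 (0.0341). DNAJC15 (MCJ), of the inner membrane, rose from 4.09 and 4.625 RPKM to 8.29 and 9.33 RPKM. DNAJC19, a J protein of the import motor, and DNAJC30 did not pass, at log2 fold changes of 0.11 and 0.26. Of the 9 mitochondrial members 8 were tested. Of these 1 rose (12.5%, against 28.4% of all genes tested) and 4 fell (against 29.8%). Their median was -0.42, and it was -0.48 without control replicate 1 and -0.36 without control replicate 2.

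Genes classed here as heat-inducible, a list that also holds the constitutive HSPA8, fell almost as a block. Of a list of 12, 8 were tested and 7 fell (87.5%, against 29.8% of all genes tested). A rise was called for 0 (against 28.4%, and 0 also at an unadjusted p under 0.05 in limma), and HSPB1 did not pass. The list median was -1.40. HSPA8, HSP90AA1, HSPD1, HSPB1, DNAJA1 and HSPE1 had control means of 100 RPKM or more, a level at which 50.9% of all genes tested fell. With no filter on low values 2 of the 7 falls passed. DNAJB1, the main HSP40 of the heat shock response, fell from 36.7 and 48.2 RPKM to 12.4 and 16.5 RPKM (log2 fold change -1.49, SE 0.186, adjusted p = 2.67e-04). It overlaps TECR, which was also lower, with 46.6 and 43.0 RPKM in control and 22.5 and 27.0 RPKM with TPA. Strand use in counting was not given, and the part of shared reads in this fall was not tested. DNAJA1, a second cytosolic partner of HSC70, fell from 140.3 and 198 RPKM to 71.9 and 85.3 RPKM (log2 fold change -1.08, adjusted p = 0.00166). HSPB1 (HSP27), a small heat shock protein that holds unfolded clients without ATP, had 184 and 189 RPKM in control and 187 and 207 RPKM with TPA. Its groups overlapped, and its log2 fold change of 0.08 (SE 0.1345) passed only after quantile normalization (0.24, adjusted p = 0.0486).

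The same genes also differed between the control replicates. All 8 were higher in control replicate 2 than in control replicate 1, by a median of 0.437 on the log2 scale, against a median of 0.0490 for all genes tested, 60.8% of which were higher in replicate 2. The ratio of control replicate 2 to control replicate 1 was 1.60 for HSPH1, 1.44 for HSPE1, 1.41 for DNAJA1, 1.37 for HSP90AA1 and 1.34 for HSPA8. For the 13 ER members the median of this difference was 0.0210. Against control replicate 1 alone, the lower library, HSPH1 had a log2 fold change of -0.98, HSPA8 of -1.78, HSP90AA1 of -1.19 and DNAJB1 of -1.30, and against control replicate 2 alone -1.64, -2.20, -1.64 and -1.68. With 1 library left out the list median ran from -1.64 to -1.16. A fit with 1 control library holds nothing of the difference between the controls. It took the spread of each gene from all genes together (infinite prior degrees of freedom), so passing in it is no check on that difference. What set the replicates apart was not tested.

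The inducible HSP70 genes HSPA1A and HSPA1B, and HSPA1L beside them, could not be followed. HSPA1A and HSPA1L were listed at 0 in every library and HSPA1B at 0.009 to 0.087 RPKM. All 3 lie in band 6p21.33, which was nearly empty in this table: a mean of 1 RPKM was reached by 3 of its 79 protein-coding genes, and by 27 of 45 in 6p21.31. HSPA1A and HSPA1B are near-identical copies, so reads that fit both could be lost or split, and the listed values are not a measure of expression here. HSPA6, a further inducible HSP70, was listed at no more than 0.099 RPKM in any library.

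Among the genes that fell, 7 of the 15 with promoter sequence carried a heat shock element, the letters that HSF1 is known to bind, between 250 bases before and 50 after a RefSeq start site. The search used GAANNTTC and TTCNNGAA, which read the same on both strands. Their 3-unit forms add NNGAA to the first or NNTTC to the second, and each contains both shorter ones. Sequences were found for 65 of the 73 members (85 windows, RefSeq, GRCh38.p14); DNAJB3, DNAJC1, DNAJC22, DNAJC24, DNAJC5B, HSPA12B, HSPA14 and HSPB2 had none. A 2-unit match in any window was present for 7 of 15 genes that fell, 3 of 10 that rose, 1 of 21 that did not pass and 11 of 19 not tested, against 16.2% of all 27305 genes with such windows. The 3-unit form was present for 5 that fell, 1 that rose, 0 that did not pass and 1 not tested, against 0.608% of all genes. These are counts of letters and show neither binding nor its absence.

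The 250 bases before the start site are printed for the constitutive HSP70 and the inducible HSP90 of the cytosol, which carry a 3-unit element and fell; capitals mark the heat shock elements, and the HSP90AA1 window belongs to the more downstream of its annotated starts. HSPA8 has a 3-unit element near each end of the stretch, and HSP90AA1 has a 3-unit and a 2-unit element close to the start. HSP90AB1, which is not printed, has 2 separate 3-unit elements in its window.
HSPA8 (chr11:123062137-123062386, - strand): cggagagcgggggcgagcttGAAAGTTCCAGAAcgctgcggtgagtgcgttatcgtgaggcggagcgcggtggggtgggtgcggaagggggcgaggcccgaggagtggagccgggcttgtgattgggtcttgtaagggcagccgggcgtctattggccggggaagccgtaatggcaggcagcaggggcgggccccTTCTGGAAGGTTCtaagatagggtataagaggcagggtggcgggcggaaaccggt
HSP90AA1 (chr14:102087045-102087294, - strand): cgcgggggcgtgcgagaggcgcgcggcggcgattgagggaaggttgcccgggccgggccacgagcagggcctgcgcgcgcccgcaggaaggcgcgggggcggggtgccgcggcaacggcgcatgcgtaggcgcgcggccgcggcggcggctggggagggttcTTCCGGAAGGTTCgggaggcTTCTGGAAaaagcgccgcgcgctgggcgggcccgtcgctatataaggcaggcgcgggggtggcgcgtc

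All 13 members listed for the ER were tested, 3 rose (23.1%, against 28.4% of all genes tested) and 0 fell (0 also at an unadjusted p under 0.05 in limma, against 29.8% of all genes), with a median of 0.19. The difference from the cytosolic members was not tested. Without TPA replicate 2, 1 of them fell. Their summed level was 445 and 501 RPKM in control and 575 and 599 RPKM with TPA. The 3 that rose are membrane J proteins. DNAJC1 (ERdj1), which sits beside the translocon, rose from 4.64 and 4.55 RPKM to 15.8 and 16.05 RPKM (log2 fold change 1.60). DNAJC18 rose from 1.78 and 1.46 RPKM to 7.19 and 6.91 RPKM (1.62), and DNAJC16 from 2.58 and 2.54 RPKM to 5.15 and 5.48 RPKM (0.83).

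The abundant chaperones of the ER lumen were higher with TPA in both libraries but did not pass. HSPA5 (BiP), the HSP70 of the ER, had 135 and 137 RPKM in control and 173 and 162 RPKM with TPA (log2 fold change 0.30, adjusted p = 0.0810). HSP90B1 (GRP94), the HSP90 of the ER, had 191 and 236 RPKM in control and 250.3 and 282 RPKM with TPA (0.32, adjusted p = 0.112), and DNAJB11 (ERdj3), a J protein that binds clients with BiP, had 35.0 and 42.4 RPKM in control and 50.2 and 50.3 RPKM with TPA (0.37, adjusted p = 0.0545). Quantile normalization, which raised the rises in the list to 6, brought all 3 past the threshold (adjusted p = 0.0131, 0.00782 and 0.00861). Without control replicate 1 the log2 fold changes were smaller, at 0.29 for HSPA5, 0.17 for HSP90B1 and 0.24 for DNAJB11 (adjusted p = 0.372, 0.625 and 0.454). DNAJB11 also passed under median-of-ratios scaling (0.0415) and with protein-coding genes alone (0.0486). The pseudogene HSP90B2P followed HSP90B1 at 0.0730 to 0.0754 of its level in each library, and reads of the pair cannot be told apart here.

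The other ER members changed little. DNAJB9 (ERdj4) had 7.23 and 6.44 RPKM in control and 6.24 and 6.53 RPKM with TPA, and DNAJC3 (P58IPK), an inhibitor of the ER stress kinases, had 14.4 and 13.8 RPKM in control and 16.7 and 13.6 RPKM with TPA. DNAJC10, DNAJB12, DNAJB14, DNAJC25 and HSPA13 had log2 fold changes of -0.06, 0.19, -0.11, -0.14 and -0.18 and did not pass. DNAJC25 shares sequence with the read-through DNAJC25-GNG10, and its value went from -0.43 to 0.15 depending on which library was left out.

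Ratios within a library set the ER forms against their cytosolic counterparts. HSPA5 stood at 0.145 and 0.110 of HSPA8 in control and at 0.63 and 0.61 of it with TPA. HSP90B1 stood at 0.385 and 0.346 of HSP90AA1 in control, and at 1.20 and 1.24 of it with TPA, so the order of these 2 HSP90 genes was exchanged. Both ratios were higher with TPA, without overlap. Genes outside the ER also stood higher against HSPA8 with TPA. HSPA9 went from 0.142 and 0.127 of HSPA8 to 0.239 and 0.255 of it, HSPB1 from 0.198 and 0.152 to 0.680 and 0.776, and HSPH1 from 0.0477 and 0.0570 to 0.0825 and 0.0806. A higher ratio to HSPA8 is thus not particular to HSPA5.

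**Figure D3:**
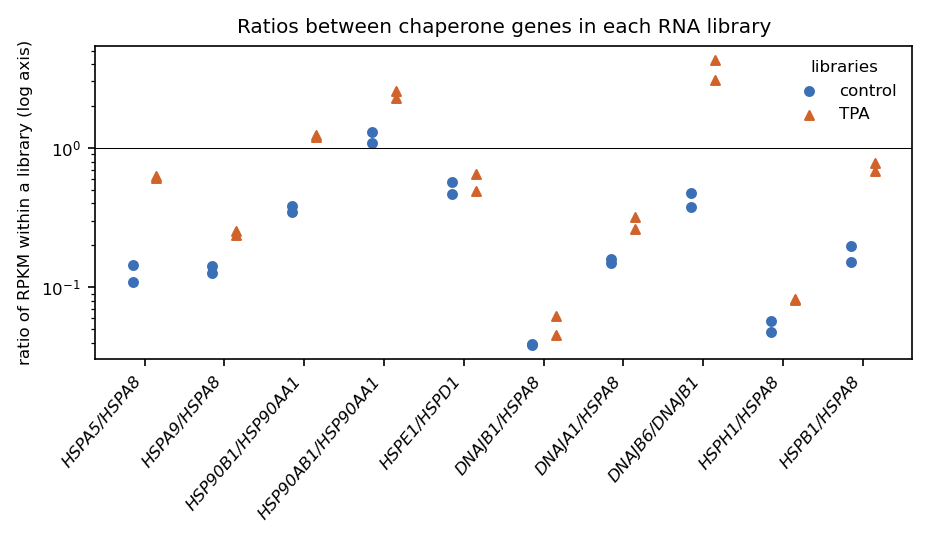
Ratio of RPKM between pairs of chaperone genes within each library (log axis), 2 control and 2 TPA libraries; a line marks equal levels. HSPA5 over HSPA8 goes from 0.110 and 0.145 to 0.61 and 0.63 and HSP90B1 over HSP90AA1 crosses the line, while HSPE1 over HSPD1 overlaps between the groups.

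HSPA5 and HSP90B1 were the only members of the 65 with promoter sequence whose windows held an ER stress element (CCAAT and CCACG with 9 bases of any kind between them, on either strand), present in 0.0916% of all genes with windows. Their 250 bases before the start site are given for comparison with those of HSPA8 and HSP90AA1, with the element in capitals; HSP90B1 holds it once on each strand.
HSPA5 (chr9:125241344-125241593, - strand): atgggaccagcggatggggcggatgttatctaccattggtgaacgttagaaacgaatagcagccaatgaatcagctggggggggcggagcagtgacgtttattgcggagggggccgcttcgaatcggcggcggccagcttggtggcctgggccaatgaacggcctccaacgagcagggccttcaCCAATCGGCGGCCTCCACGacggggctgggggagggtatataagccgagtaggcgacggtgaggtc
HSP90B1 (chr12:103930160-103930409, + strand): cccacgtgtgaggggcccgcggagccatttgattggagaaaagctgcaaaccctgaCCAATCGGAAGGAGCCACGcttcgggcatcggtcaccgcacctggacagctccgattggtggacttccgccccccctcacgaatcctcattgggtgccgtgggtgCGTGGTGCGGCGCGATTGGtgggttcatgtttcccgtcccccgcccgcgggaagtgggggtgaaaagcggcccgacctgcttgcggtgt

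Several cytosolic J proteins of the DNAJB family rose. DNAJB2, which has ubiquitin-binding motifs and passes clients to the proteasome, rose from 3.22 and 2.05 RPKM to 22.1 and 24.5 RPKM (log2 fold change 2.76, SE 0.176, adjusted p = 7.15e-06). DNAJB5, a close relative of DNAJB1, rose from 2.60 and 2.54 RPKM to 19.6 and 21.2 RPKM (2.58, SE 0.129, adjusted p = 2.12e-06). DNAJB6, known for keeping polyglutamine proteins from aggregating, rose from 17.5 and 18.1 RPKM to 53.5 and 51.0 RPKM (1.498, adjusted p = 3.48e-05). DNAJB4 also rose, from 2.88 and 3.68 RPKM to 4.61 and 4.99 RPKM, but its adjusted p of 0.0296 became 0.286 when control replicate 1 was dropped, and 0.0506 and 0.0913 on dropping TPA replicates 1 and 2 in turn.

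The balance among cytosolic J proteins therefore differed between the groups. In control DNAJB6 stood at 0.479 and 0.376 of the level of DNAJB1, and with TPA at 4.30 and 3.10 times that level. DNAJB1 stood at 0.0394 and 0.0388 of HSPA8 in control and at 0.0452 and 0.0619 of it with TPA, and DNAJA1 at 0.151 and 0.159 of HSPA8 in control and at 0.261 and 0.320 of it with TPA, so both fell by less than HSPA8. DNAJA2, a further cytosolic J protein, had 28.3 and 31.6 RPKM in control and 26.1 and 30.4 RPKM with TPA and did not pass. Of 12 cytosolic folding members tested, 4 rose (33.3%, against 28.4% of all genes tested) and 6 fell (against 29.8%). Their median was -0.39, and with no filter 1 fell. The same stretch of DNAJB6 is given as the exception among the genes with a 3-unit heat shock element, since it rose; the capitals mark the element.
DNAJB6 (chr7:157336754-157337003, + strand): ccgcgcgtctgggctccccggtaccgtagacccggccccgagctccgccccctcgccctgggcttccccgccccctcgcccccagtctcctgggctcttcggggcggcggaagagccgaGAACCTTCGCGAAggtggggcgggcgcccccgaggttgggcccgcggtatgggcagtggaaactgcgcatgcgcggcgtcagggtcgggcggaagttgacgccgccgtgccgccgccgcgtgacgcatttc

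**Figure D4:**
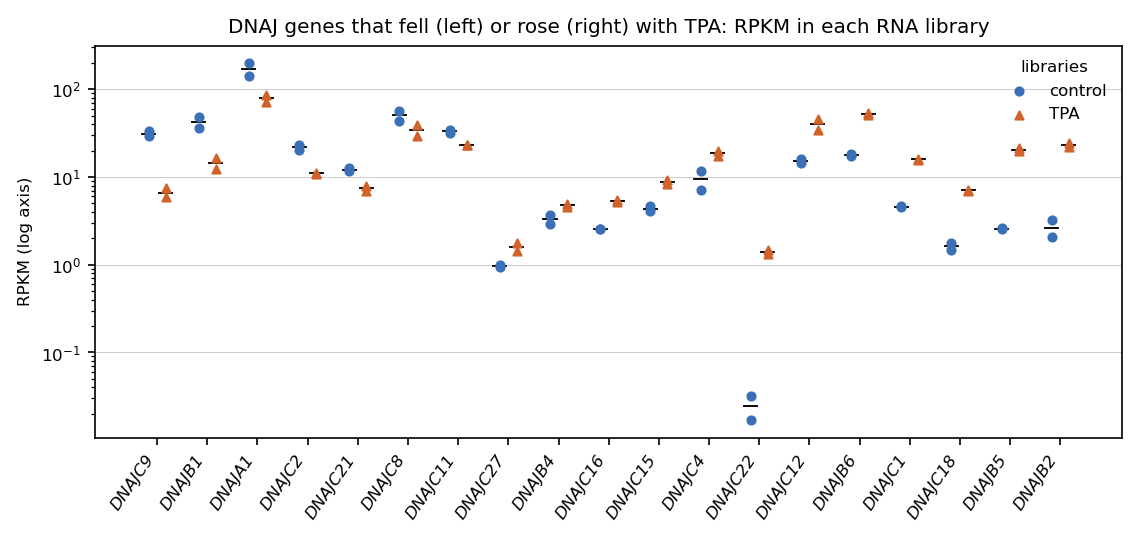
RPKM (log axis) of the 19 DNAJ genes that passed, in each of the 2 control and 2 TPA libraries, ordered from the largest fall (left) to the largest rise (right); black bars are group means. DNAJB2 and DNAJB5 have control means of 2.64 and 2.57 RPKM and TPA means of 23.3 and 20.4 RPKM, while DNAJC22 starts at 0.017 and 0.032 RPKM.

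Further DNAJC genes rose. DNAJC12, a co-chaperone of the aromatic amino acid hydroxylases, rose from 14.5 and 16.1 RPKM to 34.8 and 45.7 RPKM (log2 fold change 1.33, adjusted p = 2.48e-04). DNAJC4 rose from 11.7 and 7.19 RPKM to 17.6 and 19.7 RPKM (0.94), with control replicates that differed more than those of most members. DNAJC22 had 0.032 and 0.017 RPKM in control and 1.32 and 1.48 RPKM with TPA. It entered the test only through its treated libraries, and so had to differ. DNAJC27, a small GTPase with a J domain, had 1 and 0.953 RPKM in control and 1.45 and 1.76 RPKM with TPA. It passed (adjusted p = 0.0319), but not after quantile normalization (0.175), without control replicate 1 (0.112) or 2 (0.155), or without TPA replicate 2 (0.0514).

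The DNAJC genes that fell are largely nuclear or ribosomal in role. DNAJC9, a co-chaperone of histone H3 and H4, fell from 29.3 and 33.3 RPKM to 5.85 and 7.46 RPKM (log2 fold change -2.08, SE 0.155, adjusted p = 1.54e-05). It overlaps FAM149B1, which had 3.81 and 4.09 RPKM in control and 7.78 and 10.7 RPKM with TPA, and strand use in counting was not given. DNAJC21, which acts in large ribosomal subunit assembly, fell from 11.6 and 12.8 RPKM to 6.86 and 7.95 RPKM. DNAJC8, a protein of the splicing machinery, fell from 44.1 and 56.7 RPKM to 29.7 and 39.4 RPKM (adjusted p = 0.0377), but not without control replicate 2 (0.252) or TPA replicate 1 (0.193). Of the 6 members listed as nuclear, splicing or ribosomal, 5 fell (83.3%, against 29.8% of all genes tested). A rise was called for 0 (against 28.4%, and 0 also at an unadjusted p under 0.05 in limma), and DNAJC17 did not pass. Of all 24 DNAJC genes tested 8 rose (33.3%, against 28.4% of all genes) and 5 fell (20.8%, against 29.8%). Fewer fell without control replicate 2, and 3 fell with no filter. HSPB11 (IFT25), a subunit of the intraflagellar transport complex that carries a small heat shock protein symbol, fell from 53.7 and 63.4 RPKM to 15.7 and 18.6 RPKM (-1.72, adjusted p = 4.06e-05).

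The vesicle and endosome J proteins DNAJC5 and DNAJC13 did not pass, with log2 fold changes of -0.05 and 0.11, nor did DNAJC7 (0.0012), DNAJC14 (0.06) or DNAJC24 (-0.26). The 22 tested members that did not pass ranged from -0.37 to 0.37, with standard errors of 0.126 to 0.192, and their groups overlapped in 12 cases. The 23 members not tested had under 1 RPKM in every library, apart from DNAJC28 with 0.638 and 1.32 RPKM under TPA and at most 0.087 RPKM in control. HSPA2, an HSP70 known for its role in the testis, had 0.847 and 0.617 RPKM in control and 0.126 and 0.093 RPKM with TPA. DNAJB7 had 0.463 to 0.67 RPKM over the 4 libraries. HSPB6, HSPB9, HSPA12A, HSPA12B, DNAJB13, DNAJA4, HSPB7, DNAJC5G, HSPB2, HSPA4L, DNAJC6 and HSPB8 stayed at or below 0.249 RPKM, and DNAJB3, DNAJB8, DNAJC5B and HSPB3 were listed at 0 in all 4.

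The partners of these chaperones were read from fixed lists in the same limma fit. HSF1, the master regulator of the heat shock response, fell from 55.1 and 50.4 RPKM to 39.7 and 42.2 RPKM (log2 fold change -0.36, adjusted p = 0.0490), a narrow call. HSF2 and HSF4 fell with log2 fold changes of -0.54 and -0.56. Of the 4 genes tested in the heat shock factor list 3 fell (75.0%, against 29.8% of all genes tested). The fourth, HSBP1, encodes a protein that binds the factors and did not pass (log2 fold change -0.37, adjusted p = 0.0762). After quantile normalization 1 of the list fell, and with no filter 0. Most of these calls were lost whichever library was left out. The log2 fold changes then ran from -0.42 to -0.29 for HSF1, -0.67 to -0.40 for HSF2 and -0.80 to -0.32 for HSF4. All 8 subunits of TRiC, the cytosolic chaperonin that folds actin and tubulin, fell, with a median of -0.74 and the largest changes in TCP1 (-1.44) and CCT5 (-1.27); without control replicate 2, 5 of them fell, and with no filter 3. All 8 were also higher in control replicate 2 than in control replicate 1. Of all genes tested 29.8% fell. All 8 subunits had control means above 100 RPKM, and of all genes tested at 100 RPKM or more in control 50.9% fell.

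Of 28 HSP90 and HSP70 cofactors tested, 13 fell (46.4%, against 29.8% of all genes tested) and 4 rose (14.3%, against 28.4%), with a median of -0.35. With no filter 6 fell and 2 rose. PTGES3 (p23), which closes the HSP90 cycle, fell from 192 and 228 RPKM to 67.2 and 78.7 RPKM, and NUDC fell from 60.8 and 67.1 RPKM to 23.6 and 28.9 RPKM. STIP1 (HOP), the adaptor between HSP70 and HSP90, fell from 137 and 175 RPKM to 67.1 and 70.3 RPKM. SIL1, the nucleotide exchange factor of BiP, rose from 5.03 and 4.32 RPKM to 16.7 and 19.1 RPKM (log2 fold change 1.74), and BAG3, which links HSP70 to autophagy, from 9.71 and 9.60 RPKM to 17.2 and 16.6 RPKM. Without control replicate 1, and again without TPA replicate 2, 2 cofactors rose. BAG6 and the prefoldin gene PFDN6, in bands 6p21.33 and 6p21.32, were listed at or near 0. Of 5 prefoldin genes tested PFDN5 rose and VBP1 fell, PFDN5 not without control replicate 1 or 2 or TPA replicate 2, and VBP1 not without control replicate 2 or TPA replicate 1.

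ER folding genes outside the family went both ways, with 10 of 23 rising (43.5%, against 28.4% of all genes tested) and 5 falling (21.7%, against 29.8%). ERN1, counted among the 10, had 0.791 and 0.803 RPKM in control and 1.30 and 1.23 RPKM with TPA. It entered the test only through its treated libraries, so the filter fixed its direction. With no filter 3 rose and 2 fell. EIF2AK3 (PERK), an ER stress kinase, rose from 9.62 and 9.70 RPKM to 68.7 and 60.0 RPKM (log2 fold change 2.61), and DDIT3 (CHOP) rose by 0.87 and the sensor gene ATF6 by 0.71 on the log2 scale. EDEM1, which sends misfolded glycoproteins to degradation, fell from 157 and 184 RPKM to 30.8 and 40.6 RPKM (-2.23), and SDF2L1 and XBP1 fell with -0.99 and -0.77. Leaving out 1 library moved the rises to 3 without control replicate 1, 4 without control replicate 2 and 6 without TPA replicate 2, and the falls to 3 without control replicate 2 or TPA replicate 1.

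**Figure D5:**
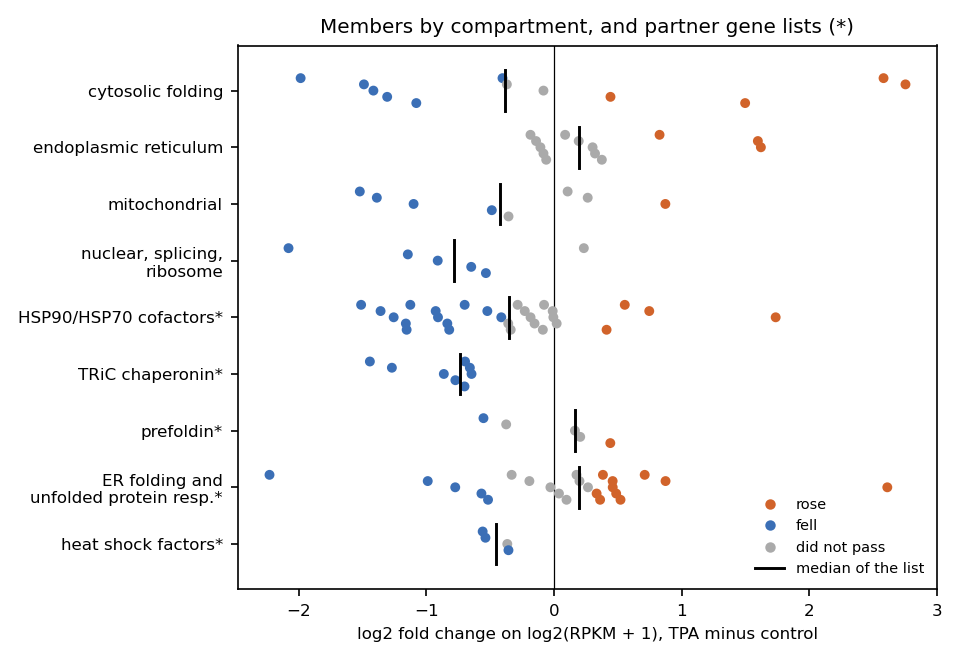
Log2 fold change (TPA minus control, on log2(RPKM + 1)) of every tested gene in the compartment lists of members and in the partner lists (marked with an asterisk); each point is a gene, coloured by its call, and black bars are list medians. TRiC lies wholly below 0 with a median of -0.74, while the median of the ER members is 0.19.

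The number of calls rested on the filter for low values. With no filter all 27142 genes entered the fit, 11 members rose and 9 fell, and 17 of the 28 calls were kept. DNAJB12 was gained (adjusted p = 0.0465), and DNAJB13 and HSPA2, under 1 RPKM in every library, were called as well. The 11 lost were those of DNAJA1, DNAJB1, DNAJB4, DNAJC4, DNAJC8, DNAJC21, DNAJC27, HSP90AA1, HSP90AB1, HSPE1 and HSPH1, whose log2 fold changes were the same as with the filter.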

How the data were processed

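Per the submitters' processing notes, the authors used HOMER, SAMtools, TopHat, Bowtie 1.12 and CASAVA 1.8 with the hg19 build; the role of each tool, strand use and the treatment of reads with several matches are not given in the sources used here. The deposited table gives RPKM to 3 decimals for 27142 genes in 4 RNA libraries (control replicates 1 and 2, TPA replicates 1 and 2, taken from titles and column headers). Steps between low values (0.03 to 0.15 RPKM) placed the depth at 97.4%, 97.8% and 91.3% of control replicate 1 for control replicate 2 and TPA replicates 1 and 2. Absolute depth is unknown, so no counting interval is given.

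The 12159 genes that reached 1 RPKM in 2 or more libraries were fitted as log2(RPKM + 1) with limma 3.58.1 in R 4.3.3 (empirical Bayes with trend, 2 residual and 5.88 prior degrees of freedom), TPA minus control, two-sided, Benjamini-Hochberg adjusted over all genes. Fold changes on this scale understate low genes. The fit was tested on simulated data. Figures used matplotlib 3.10.9.

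The members and lists were chosen with earlier results of these data known. Genes named are the 10 largest rises and falls among members that passed, a fixed set of well-known members, per partner list the 2 genes of smallest p among rises and among falls, and, chosen after their values were seen, the remaining members and some partners. Alternatives were pseudocounts of 0.1 and 0.5, no filter or 5 RPKM, median-of-ratios and quantile scaling, limma without trend or with robust estimation, a replicate block, each library left out, protein-coding genes only, and thresholds of 0.01 and 0.1.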

Additional observations from a re-analysis of the deposited data

How the results depend on the processing

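The counts of members that rose (12) and fell (16) stayed within 1.5 times those values in every alternative except the fit with no filter on low values, where 9 fell; the prior degrees of freedom were then 0.663 in place of 5.88. With 1 library left out, 10 to 11 rose and 13 to 17 fell, and the median over the members ran from -0.111 to 0.0238; it was 0 with no filter and 0.00774 after quantile normalization. No member that had passed changed sign in any alternative. With the replicate number as a block all 28 calls were kept and 5 were gained (HSPA5, HSP90B1, DNAJB11, HSPA4 and DNAJA3); the numbers are not stated to pair the libraries, and over the genes tested the differences between replicates in the 2 groups had a correlation of 0.361. Members that did not pass and changed sign were DNAJC7 (-0.026 after median-of-ratios scaling, -0.0811 to 0.0835 with 1 library left out), DNAJA2 (0.015 after quantile normalization, -0.19 to 0.023) and DNAJC5 (0.00088 after quantile normalization, -0.14 to 0.040), and, with 1 library left out, DNAJC13 (-0.0029 to 0.22), DNAJC14 (-0.11 to 0.22), DNAJB14 (-0.23 to 0.012), DNAJC10 (-0.15 to 0.025), DNAJC25 (-0.43 to 0.15), DNAJC3 (-0.049 to 0.22) and DNAJC19 (-0.0092 to 0.22), as did the prefoldin median (-0.051 to 0.38). The cause of these changes was not tested. Fits that leave out 1 library assume that the lone library of a group varies like the other group. Without control replicate 1 or 2 the prior degrees of freedom were infinite, so the spread of each gene came from all genes together.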
